A study of Mus musculus with 6 samples.

Results

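The zinc-dependent histone deacetylases remove acetyl groups from lysines of histones and other proteins. Taken by symbol, 10 genes of the family, though not every gene of it, are reported here, out of 54115 genes with a matched transcript. They are Hdac1, Hdac2, Hdac3, Hdac8 (class I), Hdac4, Hdac5, Hdac7, Hdac9 (class IIa), Hdac6 (class IIb) and Hdac11 (class IV). Their mRNA was measured by RNA-sequencing in muscle stem cells (satellite cells) freshly sorted from uninjured hindlimb muscle (α7-INTEGRIN+, CD34+, CD31-, CD11b-, SCA-1-, CD45-) of C57BL/6J mice aged 6 to 8 weeks. Pax7KR mice carried, on both alleles, a CRISPR/Cas9 change of 1 acetylated lysine of PAX7, the transcription factor that specifies these cells, into an arginine that cannot be acetylated. Pax7WT littermates were the controls, and each genotype had 3 libraries made from 15 ng of RNA. No transgene or Cre is part of this comparison, every cell of a Pax7KR mouse carries the change, and the number of founder lines is not given in the sources used here.

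Class I enzymes are mostly nuclear and act as the catalytic subunits of co-repressor complexes: HDAC1 and HDAC2 in the Sin3, NuRD and CoREST complexes, and HDAC3 in the NCoR and SMRT complex. Class IIa proteins have little deacetylase activity of their own, carry HDAC3 with its co-repressor to the MEF2 transcription factors of muscle, and leave the nucleus when kinases phosphorylate them. HDAC6 is a cytoplasmic enzyme that acts on tubulin, and HDAC11 is the single member of its class. The comparison of Pax7WT with Pax7KR asks whether the loss of this PAX7 acetylation site goes with a change in the mRNA of the family, since the study set out to learn how PAX7 acetylation affects gene expression in satellite cells.

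The divide between the classes can be read in the coding sequence around the catalytic position, a tyrosine in the active members and a histidine in class IIa. The stretches of 33 bases below were read from the GRCm38 coding transcripts, with the catalytic codon in capitals, and are shown because they separate the enzymes of this report by activity. Their codons lie at chr4:129518901-129518903 (Hdac1, exon 9 of 14, residue 303, minus strand), chr10:36997057-36997059 (Hdac2, exon 9 of 14, residue 304, plus strand), chrX:102402672-102402674 (Hdac8, exon 9 of 11, residue 306, minus strand), chr1:91945960-91945962 (Hdac4, exon 24 of 27, residue 968, minus strand), chr11:102196599-102196601 (Hdac5, exon 24 of 27, residue 999, minus strand), chr15:97796158-97796160 (Hdac7, exon 21 of 24, residue 830, minus strand), chr12:34107278-34107280 (Hdac9, exon 22 of 25, residue 954, minus strand), chrX:7932229-7932231 (Hdac6, the later of its catalytic domains, exon 24 of 29, residue 781, minus strand) and chr6:91173130-91173132 (Hdac11, exon 10 of 10, residue 304, plus strand).
Hdac1: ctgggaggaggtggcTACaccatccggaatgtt
Hdac2: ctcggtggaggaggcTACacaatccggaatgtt
Hdac8: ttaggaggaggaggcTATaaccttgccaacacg
Hdac4: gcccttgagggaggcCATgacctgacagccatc
Hdac5: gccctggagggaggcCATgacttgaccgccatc
Hdac7: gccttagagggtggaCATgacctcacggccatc
Hdac9: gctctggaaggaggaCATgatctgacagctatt
Hdac6: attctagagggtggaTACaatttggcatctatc
Hdac11: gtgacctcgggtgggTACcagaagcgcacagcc
All active members shown have TAC or TAT, which encode tyrosine, and all 4 class IIa members have CAT, which encodes histidine. Hdac1 and Hdac2 share 29 of the 33 bases and Hdac4 and Hdac5 share 30, whereas Hdac1 and Hdac4 share 10. Sequence of Hdac3 is not shown here.

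All 10 members passed the filter of 5 or more reads in 2 or more libraries, and 9 of them had reads in every library. Per transcript length, Hdac2 was the most abundant member at 108 ± 5.98 TPM (transcript abundance per length, scaled to the library, mean ± SD over 6 libraries), above 92.8% of the 17152 genes tested. Hdac1 followed at 85.7 ± 3.51 TPM and Hdac3 at 67.4 ± 5.71 TPM. Hdac4 was the leading class IIa member at 51.2 ± 5.78 TPM in the sum over its transcripts. Its most-read transcript, Hdac4-202 (8100 bases), gave 22.7 to 26.5 TPM of this in a library. A short coding form, Hdac4-205 (849 bases), gave 8.37 to 17.7 TPM from 59.5 to 147 reads. The Hdac4 level thus rests in part on short forms with few reads. Hdac5 stood at 38.2 ± 5.96 TPM and Hdac11 at 36.5 ± 1.62 TPM. Hdac6 (15.6 ± 1.41 TPM), Hdac7 (13.0 ± 1.51 TPM) and Hdac8 (5.54 ± 0.256 TPM) were lower, against a median of 11.9 TPM over the genes tested.

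**Figure D1:**
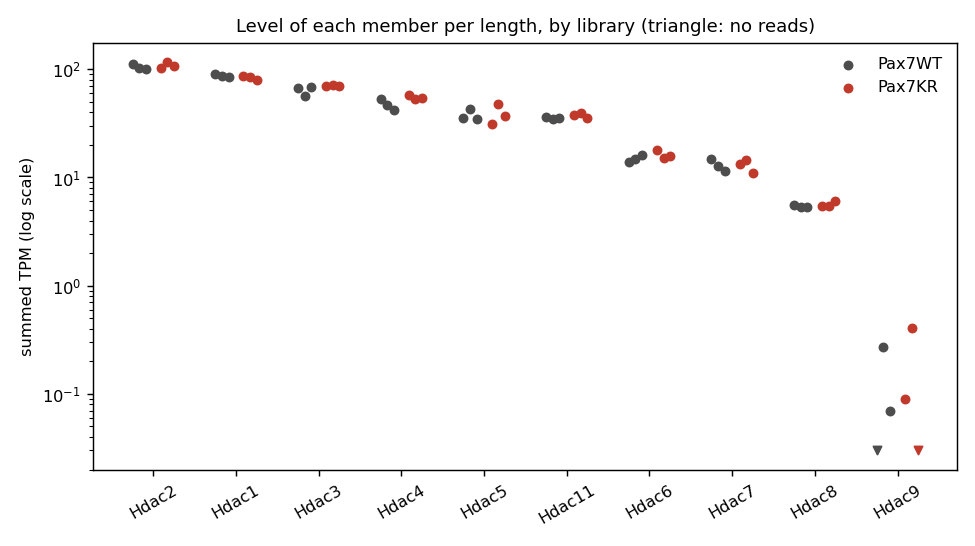
Summed TPM of each member (log scale) in each of the 6 libraries, ordered by the mean, with Pax7WT in grey and Pax7KR in red and a triangle for a library without reads. Hdac2 lies highest at 108 TPM, Hdac5 and Hdac11 lie at the same height, and Hdac9 lies below 1 TPM.

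Neighbours in this order were compared within each library, over 9 pairs, on the scale of log2(TPM + 0.1). The order was taken from these same 6 libraries, so the p-values are no independent support for it. Hdac2 over Hdac1, Hdac1 over Hdac3, Hdac3 over Hdac4, Hdac4 over Hdac5, Hdac11 over Hdac6, Hdac7 over Hdac8 and Hdac8 over Hdac9 held in 6 of 6 libraries (exact two-sided permutation test, p = 0.0312 before and 0.0402 after adjustment over the 9 pairs, the smallest p that 6 libraries allow being 0.03125). The gaps were 0.33 ± 0.098 for Hdac2 over Hdac1 and 1.21 ± 0.20 for Hdac7 over Hdac8 (log2, mean ± SD, n = 6 libraries). Hdac5 and Hdac11 were not separated, since Hdac5 was higher in 3 of 6 libraries (exact permutation p = 0.562). Hdac6 was above Hdac7 in 5 of 6 libraries (exact permutation p = 0.0938, adjusted p = 0.105). When reads of protein-coding transcripts alone were used, a setting chosen after seeing the data, only 4 of the 10 members kept their rank. Hdac4 (46.0 TPM) then lay above Hdac3 (40.1 TPM), Hdac11 (32.0 TPM) above Hdac5 (19.3 TPM) and Hdac7 (10 TPM) above Hdac6 (9.82 TPM). This Hdac4 value still includes the short Hdac4-205. Hdac4-202 alone, at 22.7 to 26.5 TPM in a library, lay below the coding sums of Hdac3 (36.0 to 42.8 TPM) and Hdac11 (28.7 to 34.1 TPM).

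The class I genes together took 63.9% ± 1.3 of the summed TPM of the 10 members in Pax7WT and 62.7% ± 0.64 in Pax7KR (SD, n = 3 each). Class IIa took 23.8% ± 1.59 and 24.8% ± 0.859, HDAC6's gene 3.64% ± 0.376 and 3.81% ± 0.442, and Hdac11 8.65% ± 0.24 and 8.68% ± 0.195. In each of these classes the libraries of the genotypes overlapped. The 10 members together summed to between 401 and 431 TPM in Pax7WT and between 417 and 449 TPM in Pax7KR.

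The libraries held 17822367 to 27908054 reads. Satellite cell markers were high in every library: Pax7 ran from 1410 to 1670 CPM (reads scaled to the size of the library, with TMM library sizes), Myf5, an early myogenic factor, from 402 to 456 CPM, Itga7, the integrin of the sort, from 302 to 381 CPM, and Vcam1 from 573 to 674 CPM. All 12 satellite cell markers had reads in all libraries, with a summed level of 10100 to 10600 CPM in Pax7WT and 9910 to 10200 CPM in Pax7KR. All 12 endothelial markers also had reads in every library, at 291 to 372 CPM summed in Pax7WT and 322 to 422 CPM in Pax7KR. Tek made up most of these sums, at 184 to 231 CPM in a library. The 6 erythroid markers summed to 191 to 376 CPM and 329 to 557 CPM, and 12 immediate early and dissociation genes to 27100 to 44700 CPM and 34100 to 38600 CPM. The 12 immune markers summed to 15.6 to 17.1 CPM in Pax7WT and 13.5 to 17.5 CPM in Pax7KR, with Cd3e, a T cell marker, at 0 in all libraries. Of 11 immune markers tested, 3 had an unadjusted p under 0.05 in edgeR (adjusted p = 0.992 each), Cd79a, a B cell gene, at 5.21 to 6.8 CPM in Pax7WT and 3.83 to 4.02 CPM in Pax7KR, and Cd52 and C1qa, higher in Pax7KR but at most 0.52 CPM in any library. Of the 8 Schwann and glial markers 1 did, Ngfr, at 24.7 to 32.5 CPM in Pax7WT and 15.7 to 23.7 CPM in Pax7KR (edgeR adjusted p = 0.992). The other marker lists held none at that unadjusted threshold, which 4.68% of all genes tested passed. The part of immune and glial cells in the members' values was not tested. The 10 fibro-adipogenic markers, of which Col3a1, Dpt and Gsn made up most, summed to 3040 to 3150 CPM in Pax7WT and 3110 to 3230 CPM in Pax7KR. The median gene of that list lay at 14.9 CPM, with Pdgfra at 1.51 to 3.81 CPM and Dcn at 24.7 to 45.3 CPM in a library. The 9 smooth muscle and pericyte markers reached 803 to 965 CPM in Pax7WT and 775 to 853 CPM in Pax7KR. Des was the largest part of that sum, at 417 to 522 CPM in a library. The 8 Schwann and glial markers reached 111 to 134 CPM and 86.3 to 111 CPM, and the 12 myofibre markers 111 to 127 CPM and 98.4 to 117 CPM. In such bulk samples, fewer cells of a type and less RNA per cell cannot be told apart. The files name no batch, and no pair of libraries agreed within sampling noise (chi-square per gene of 10.91 to 25.07). The samples are labelled by replicate number, and the study states that its experiments used biological replicates.

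No member passed an adjusted p of 0.1 between the genotypes by edgeR's quasi-likelihood test, against a background of 0.0% of the 17152 genes tested (0 genes). At an unadjusted p under 0.05 there were 0 members, while 4.68% of all genes, 803, were past that threshold. DESeq2 found 0 of the 10 members past an adjusted p of 0.1, without or with a length offset. Over all genes it found 30 without the offset and 45 with it. Of the 10 members, 7 had a higher and 3 a lower fitted level in Pax7KR, with a median log2 fold change of 0.017 beside -0.0037 over all genes tested. The scale of the differences is narrow: for the 9 members other than Hdac9, the 95% intervals of the log2 fold change together ran from -0.40 to 0.36.

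**Figure D2:**
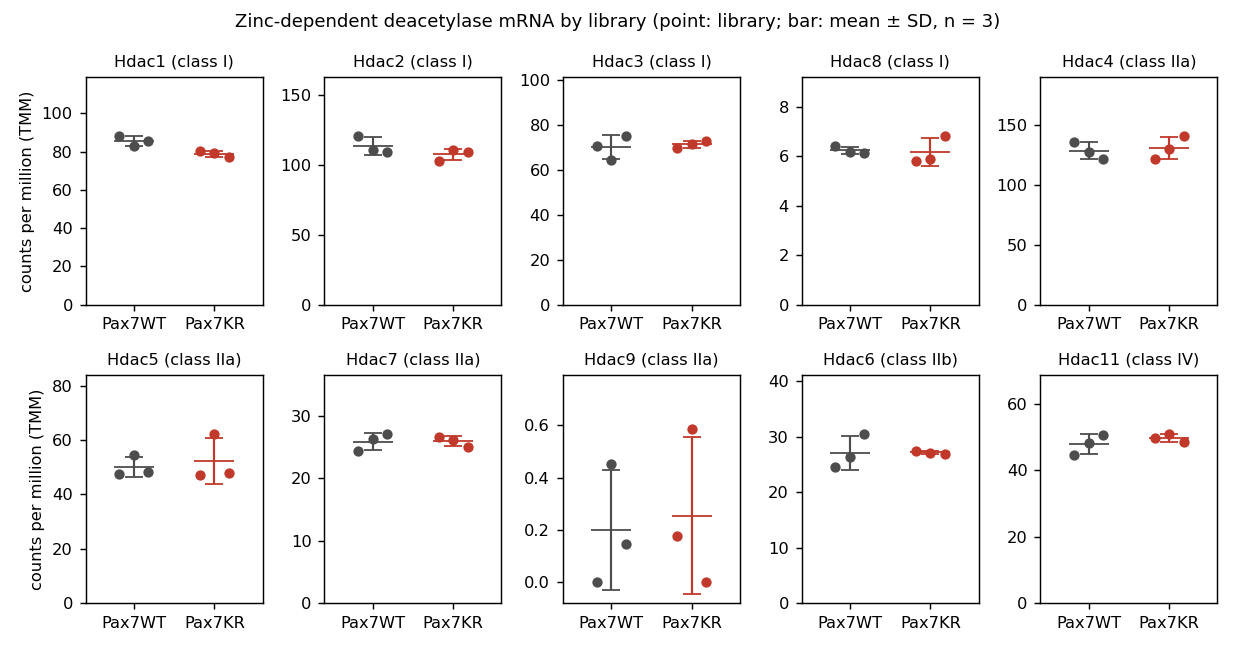
CPM of each member in the 3 Pax7WT (grey) and 3 Pax7KR (red) libraries, one panel per gene with its own axis, where points are libraries and bars the mean ± SD. The points of the genotypes overlap in 9 panels, and in the Hdac1 panel all Pax7KR points, 77.3 to 80.3 CPM, lie below the Pax7WT points, 82.8 to 88.1 CPM.

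Among the class I genes, Hdac1, the catalytic subunit of several co-repressor complexes, had 88.1, 82.8 and 85.8 CPM in Pax7WT and 80.3, 79.3 and 77.3 CPM in Pax7KR. It was the only member whose genotypes did not overlap, 1 of 10, when 10.3% of all genes tested had groups that did not overlap and 5.19% had them lower in Pax7KR. The log2 fold change was -0.12 (SE 0.061, 95% interval -0.25 to 0.017), and the edgeR adjusted p of 0.992 did not pass (unadjusted p = 0.0817). Without Pax7WT replicate 2 the unadjusted p was 0.0486 and the edgeR adjusted p 0.798. Hdac1 shares 39.97% of the 31-base words of its transcripts with other genes, 34.8% with the processed pseudogene Gm10093, so its reads are uncertain. To Gm10093 itself the authors' quantification assigned 6, 0 and 2 reads in Pax7WT and 6, 0 and 0 in Pax7KR.

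Hdac2, which shares complexes with Hdac1, had 120.7, 110.7 and 109.0 CPM in Pax7WT and 103.0, 110.9 and 109.1 CPM in Pax7KR. Its highest library was Pax7WT replicate 1 and its lowest Pax7KR replicate 1, with the rest overlapping, and the log2 fold change was -0.076 (SE 0.064, 95% interval -0.21 to 0.062). Within a library the ratio of Hdac1 to Hdac2 in TPM was 0.827 ± 0.0238 in Pax7WT and 0.769 ± 0.0629 in Pax7KR (SD, n = 3), with Pax7KR replicates 2 and 3 below the rest at 0.728 and 0.738. None of the 31-base words of Hdac2, Hdac3 or Hdac8 occurs in another gene.

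Hdac3, the enzyme of the NCoR and SMRT complex, had 70.7, 64.2 and 74.9 CPM in Pax7WT and 69.5, 71.2 and 72.8 CPM in Pax7KR, so that all Pax7KR values fell inside the Pax7WT range. Its log2 fold change was 0.025 (SE 0.071, 95% interval -0.13 to 0.18). In summed TPM, a scale chosen after seeing the data, Hdac3 and no other member was apart, at 56.1 to 69.1 TPM in Pax7WT and 69.7 to 71.8 TPM in Pax7KR, 1 of 10 members where 12.5% of all genes tested did not overlap on that scale. Hdac8, which deacetylates the cohesin subunit SMC3, had 6.40, 6.15 and 6.14 CPM in Pax7WT and 5.82, 5.86 and 6.81 CPM in Pax7KR. It was the least abundant of the class, with 109 to 174 reads in a library, and its interval was correspondingly wide (log2 fold change -0.017, SE 0.175, 95% interval -0.40 to 0.36). Among protein-coding transcripts alone, also chosen after seeing the data, Hdac8 was the single member whose TPM values did not overlap, beside 12.9% of 13715 genes. They were 5.34, 5.17 and 5.08 TPM in Pax7WT and 5.43, 5.44 and 5.38 TPM in Pax7KR, slightly higher in Pax7KR and so opposite in direction to the fitted value in CPM.

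**Figure D3:**
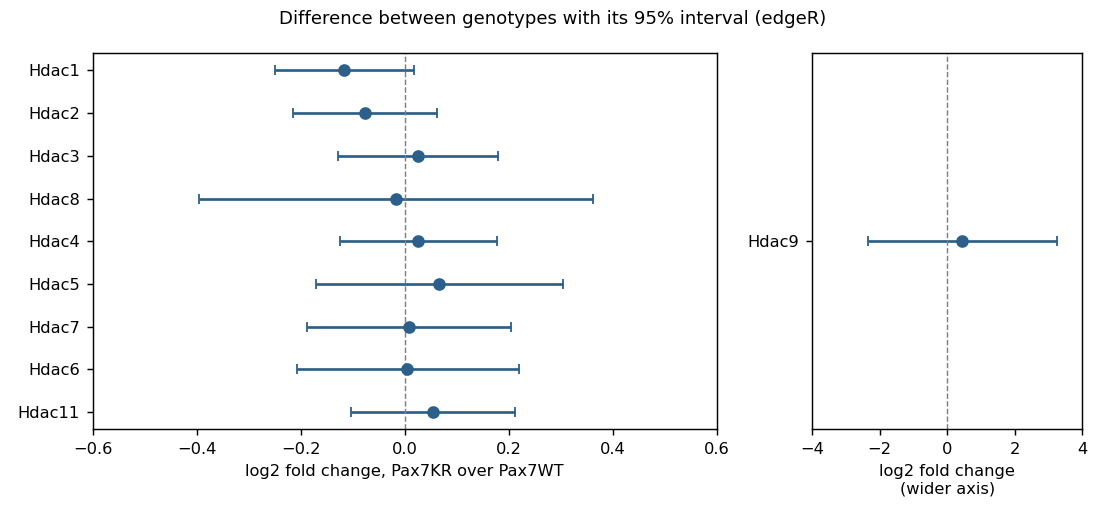
Log2 fold change of Pax7KR over Pax7WT for each member with its 95% interval from edgeR, with Hdac9 on a wider axis at the right. Every interval includes 0, and that of Hdac9, which runs from -2.36 to 3.27, is the widest.

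Among the class IIa genes, Hdac4, a repressor of MEF2 in muscle, had 135.8, 127.1 and 121.6 CPM in Pax7WT and 121.5, 129.8 and 140.4 CPM in Pax7KR. The groups overlapped over nearly their whole range (log2 fold change 0.026, SE 0.070, 95% interval -0.12 to 0.18). Of its 31-base words 21.9% lie antisense to Gm26720, a transcript on the opposite strand. The library kit keeps strand, but the strand setting of the quantification is not given in the sources used here.

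Hdac5, which also binds MEF2, had 47.4, 54.4 and 48.3 CPM in Pax7WT and 47.1, 62.1 and 47.9 CPM in Pax7KR. Pax7KR replicate 2 stood above the other libraries, and the log2 fold change was 0.066 (SE 0.108, 95% interval -0.17 to 0.30), or -0.075 without that library. Pax7KR replicate 2 also had the highest level of the endothelial marker Pecam1 (50.4 CPM, against 20.7 to 42.2 CPM in the other libraries) and of all 12 endothelial markers summed (422 CPM). Of these markers Tek, Kdr and Cldn5 were highest in a Pax7WT library instead, Kdr at 19.2 CPM in Pax7WT replicate 3 against 15.0 CPM in Pax7KR replicate 2. The part of endothelial RNA in the Hdac5 value was not tested. Hdac7, a class IIa member known from endothelial cells and thymocytes, had 24.4, 26.3 and 27.1 CPM in Pax7WT and 26.7, 26.2 and 25.1 CPM in Pax7KR. Its log2 fold change was 0.008 (SE 0.091, 95% interval -0.19 to 0.21).

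Hdac9, the remaining class IIa gene, was at or near the limit of detection. It had 0, 8 and 3 reads in Pax7WT and 4, 14 and 0 in Pax7KR, and in Pax7WT replicate 1 and Pax7KR replicate 3 no read allows a level of up to 0.110 and 0.142 CPM, the worth of 3 reads. These limits cover counting error only. It passed the filter through 2 libraries, Pax7WT replicate 2 and Pax7KR replicate 2, and its fitted difference carries no direction (SE 1.29, 95% interval -2.36 to 3.27). Transcripts of a later annotation release were not matched here, and where they include Hdac9 forms these reads are a lower limit.

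Hdac6, the tubulin deacetylase, had 24.5, 26.4 and 30.4 CPM in Pax7WT and 27.4, 27.1 and 27.0 CPM in Pax7KR. The Pax7KR libraries were close to each other and inside the Pax7WT range (log2 fold change 0.005, SE 0.099, 95% interval -0.21 to 0.22). Hdac11, which removes long-chain fatty acyl groups as well as acetyl groups, had 44.7, 48.3 and 50.5 CPM in Pax7WT and 49.6, 50.8 and 48.5 CPM in Pax7KR (log2 fold change 0.054, SE 0.073, 95% interval -0.10 to 0.21). Of its 31-base words 16.3% lie antisense to other genes, most of them Gm44002, to which no read was assigned.

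The transcripts behind these totals differed among the members. Of the 9 members with reads in every library, 7 had the same most-read transcript in all 6: Hdac1, Hdac2, Hdac3, Hdac4, Hdac5, Hdac8 and Hdac11. The leading coding transcript took 90.6% of the reads of Hdac1 (Hdac1-201), 84.7% of Hdac2 (Hdac2-201), 90.1% of Hdac4 (Hdac4-202), 95.4% of Hdac8 (Hdac8-201) and 96.9% of Hdac11 (Hdac11-201), as means over the 6 libraries. A longer coding form, Hdac2-202, took 13.5% ± 0.796 of Hdac2 reads in Pax7WT and 11.1% ± 1.01 in Pax7KR (SD, n = 3). Of Hdac3 reads, 66.2% went to its coding transcript and 21.7% to the retained-intron transcript Hdac3-203.

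Hdac5, Hdac6 and Hdac7 were split among similar transcripts in unequal ways from library to library. Hdac7-202 took between 0.0% and 49.7% of Hdac7 reads and Hdac7-204 between 0.0% and 45.1%. Both had none in Pax7WT replicate 2, and Hdac7-204 also had none in Pax7KR replicate 2. Hdac5-204 took between 37.1% and 77.1% of Hdac5 reads and Hdac5-202 between 5.39% and 33.2%. The gene totals of these members did not vary in this way, as their CPM values above show.

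**Figure D4:**
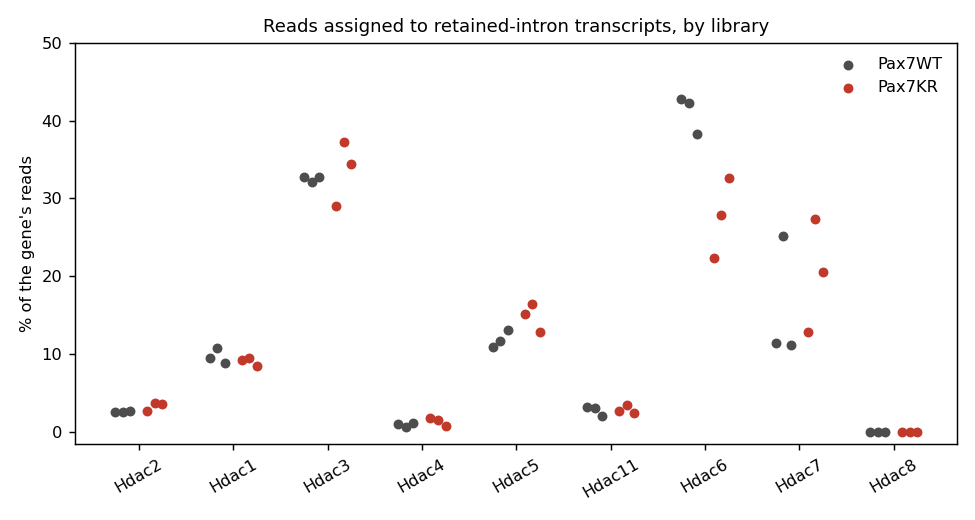
Percentage of each gene's reads assigned to transcripts annotated as retained introns, by library (Pax7WT grey, Pax7KR red), with Hdac9 left out for its few reads. Hdac6 shows 38.3% to 42.8% in Pax7WT and 22.3% to 32.6% in Pax7KR, and the genotypes of the other members overlap.

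The genotypes did not overlap for Hdac6 in the plot of retained-intron reads. The share of its reads assigned to retained-intron transcripts was 42.8%, 42.3% and 38.3% in Pax7WT and 22.3%, 27.9% and 32.6% in Pax7KR, with all Pax7KR libraries below all Pax7WT libraries. The single transcript Hdac6-204, a retained-intron form, took 36.0%, 37.3% and 32.1% of the reads in Pax7WT and 21.0%, 25.1% and 25.2% in Pax7KR. This pattern was looked at after the values were seen and was given no test. Of 3491 genes with 10% to 90% of their reads outside protein-coding transcripts and a mean of at least 100 reads, 11.0% had groups that did not overlap in that share, and 3.72% differed by as many percentage points as Hdac6 or more (-13.5 points, Pax7KR minus Pax7WT). Of the 4 members in that comparison 2 did not overlap, Hdac6 and Hdac5, whose share ran from 16% to 25% in Pax7WT and from 25.4% to 35.6% in Pax7KR. In a fit of protein-coding transcripts alone, Hdac6 had 381, 270 and 385 reads in Pax7WT and 487, 467 and 384 in Pax7KR (log2 fold change 0.30, unadjusted p = 0.0473, edgeR adjusted p = 0.977), so it did not pass there either.

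The promoters of the members differ in CpG content, the dinucleotide that marks promoters of broadly expressed genes. RefSeq promoter windows of 300 bases (GRCm38.p6) were at hand for 8 members, in 12 windows, and the upstream 250 bases of the most and least abundant members are printed with each CpG in capitals to show the range. Hdac2 lies at chr10:36974294-36974543 on the plus strand and Hdac9 at chr12:34917096-34917345 on the minus strand.
Hdac2: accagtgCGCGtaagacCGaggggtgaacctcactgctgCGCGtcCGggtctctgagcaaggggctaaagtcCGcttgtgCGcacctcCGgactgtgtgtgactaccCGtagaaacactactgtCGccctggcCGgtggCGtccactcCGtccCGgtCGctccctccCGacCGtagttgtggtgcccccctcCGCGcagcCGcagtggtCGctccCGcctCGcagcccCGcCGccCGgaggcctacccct
Hdac9: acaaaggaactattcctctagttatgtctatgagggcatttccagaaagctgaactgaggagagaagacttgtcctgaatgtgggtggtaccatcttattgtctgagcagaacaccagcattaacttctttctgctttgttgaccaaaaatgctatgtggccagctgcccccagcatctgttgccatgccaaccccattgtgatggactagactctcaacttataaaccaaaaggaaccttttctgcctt
The 300-base window of Hdac2 holds 36 CpG, as many as or more than 94.4% of 32851 promoters, and the printed window of Hdac9 holds 0, as do 5.43% of promoters. A further Hdac9 window, at chr12:34528890-34529139 upstream, holds 3, and 31.4% of promoters hold as few. The median over all promoters is 7. The remaining windows held 32 for Hdac4, 22 for Hdac11, 20 for Hdac6, 18 for Hdac5 and 6 for Hdac8, and from 5 to 35 over the 4 windows of Hdac7. The homeodomain motif TAATTA, of the kind that PAX7 can bind, was found on either strand in 5.29% of all promoters and in none of these 12 windows. The motif GGGCGG, searched on either strand, was found in 35.66% of all promoters and in a window each of Hdac2, Hdac4, Hdac5, Hdac6, Hdac7 and Hdac11.

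The genes that work with the family were taken as 10 lists, 116 genes of which 114 were tested. No partner gene passed an adjusted p of 0.1 by edgeR (smallest adjusted p = 0.865), and by DESeq2 0 did. At an unadjusted p under 0.05, 2 genes were higher and 2 lower in Pax7KR, 3.51% of the 114 beside 4.68% of all genes. The median log2 fold change over the 114 was 0.008. The genotypes did not overlap for 12 of them, 10.5%, beside 10.3% of all genes.

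Of the complexes around HDAC1 and HDAC2, the NuRD list of 13 genes held both an upper and a lower gene at an unadjusted p under 0.05, with a median log2 fold change of -0.048. Chd5, a chromatin remodeller of the complex, had 16.2, 15.5 and 18.7 CPM in Pax7WT and 21.6, 22.8 and 23.5 CPM in Pax7KR. It stood apart in all libraries (log2 fold change 0.43, SE 0.107, unadjusted p = 0.00149, edgeR adjusted p = 0.865). Mta3, a scaffold subunit, had 32.0, 31.4 and 32.9 CPM and 27.6, 27.6 and 28.4 CPM (log2 fold change -0.20, SE 0.082, unadjusted p = 0.0272, edgeR adjusted p = 0.992), again without overlap. The Sin3 list of 15 genes (median 0.075) and the CoREST list of 9 genes (median 0.010) held none at that threshold. Their genes of smallest p were Suds3 at 68.5 ± 3.24 and 75.0 ± 1.94 CPM and Rcor3 at 60 ± 6.07 and 55.1 ± 5.27 CPM (Pax7WT and Pax7KR, SD, n = 3 each). In the MIER and MiDAC list of 6 genes (median -0.018), which are further HDAC1 and HDAC2 complexes, it was Trerf1 at 11.8 ± 1.29 and 10.2 ± 0.588 CPM.

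In the NCoR and SMRT list, 5 genes around HDAC3 (median 0.021), the gene of smallest p was Tbl1xr1, a WD-repeat subunit, at 50 ± 1.9 CPM in Pax7WT and 46.1 ± 3.06 CPM in Pax7KR. Among 12 cohesin genes (median 0.010) it was Esco1, which acetylates SMC3, at 45.5 ± 5.24 and 42.0 ± 1.71 CPM. In the list of 12 MEF2 factors and other class IIa partners (median -0.005), Mef2a, a target of class IIa repression in muscle, had 114, 116 and 108 CPM in Pax7WT and 80.4, 101 and 106 CPM in Pax7KR, below all Pax7WT libraries (log2 fold change -0.24, SE 0.092, unadjusted p = 0.0249, edgeR adjusted p = 0.992). Pax7KR replicate 1 was the lowest of the 6.

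Of the 23 kinases and Ywha adaptor proteins, which send class IIa proteins out of the nucleus, 21 were tested (median 0.018). Camk2b, a calcium-dependent kinase, had 0.698, 1.02 and 1.07 CPM in Pax7WT and 1.75, 3.10 and 0.946 CPM in Pax7KR, where the third value lay inside the Pax7WT range (log2 fold change 1.07, SE 0.453, unadjusted p = 0.0349, edgeR adjusted p = 0.992). In the list of 10 HDAC6 substrates and partners (median -0.017) the gene of smallest p was Hsp90ab1, a chaperone, at 2070 ± 75.7 and 1910 ± 31.5 CPM. Among 11 bromodomain genes, which read acetyl-lysine (median 0.041), it was Brd7 at 50.5 ± 4.33 and 54.9 ± 0.354 CPM.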

How the data were processed

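RNA of satellite cells was measured in 6 libraries, 3 per genotype, grouped by their labels. The authors prepared directional libraries, quantified paired reads with Salmon (version 1.3.0) on GENCODE transcripts with decoys from the GRCm38 genome, and deposited raw estimated counts, TPM values and effective lengths for each transcript. A further table deposited by the authors holds their DESeq2 (version 1.28.1) comparison, with log2 fold changes and p-values, which was not used.

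Of 140992 transcripts, 139791 were matched by identifier to an earlier GENCODE release on GRCm38, and 1201, with 0.606% of all reads, were left out. Reads were summed per gene and rounded. Genes reaching 5 reads in at least 2 libraries entered the test of genotype with edgeR (version 4.0.16, TMM, robust quasi-likelihood test) in R (version 4.3.3), Benjamini-Hochberg adjusted over all 17152 genes, with a cut-off of 0.1. The common biological coefficient of variation was 13.75%. TPM summed per gene, with a pseudocount of 0.1, served to compare levels between genes. Alternatives used DESeq2 (version 1.42.0). The fit was tested on simulated data. The remaining steps ran in Python with scipy (version 1.17.1). Reads per library give precision for counting error only.

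The members and lists were chosen with earlier results of these data known. All members are named, and of each list of partner genes at most 2 in each direction, those of smallest unadjusted p under 0.05, or else the gene of smallest p. Pax7, Myf5, Itga7 and Vcam1 are named to check the cell type. Other markers named singly were chosen after their values were seen. Gene positions and coding sequences are from the GENCODE release used for matching.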

Additional observations from a re-analysis of the deposited data

How the results depend on the processing

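Of 16 alternatives to the edgeR fit, none brought a member past an adjusted p of 0.1. The numbers of members at an unadjusted p under 0.05 were 1 with protein-coding transcripts only (Hdac6) and 0 to 1 with a library left out (Hdac1, without Pax7WT replicate 2). Over all genes, 623 of 13715 were at that threshold with protein-coding transcripts only and 1048 of 16942 without Pax7WT replicate 2. Over all genes, the count past an adjusted p of 0.1 was 30 with DESeq2, 45 with DESeq2 and a length offset, 157 without a filter and 1 to 32 with a library left out, the highest without Pax7KR replicate 3. Genes at an unadjusted p under 0.05 numbered 1373 of 24068 without a filter and 533 to 1048 with a library left out, the lowest without Pax7KR replicate 2. Among partner genes, 1 (Chd5, adjusted p = 0.0619) passed without a filter, and 7 were at an unadjusted p under 0.05 without a filter and 1 to 6 with a library left out, the lowest without Pax7KR replicate 1 (1) and replicate 2 (2). The cause of these changes was not tested.

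Replicate numbers did not pair the samples: same-numbered libraries correlated at 0.005, 0.027 and -0.044 in their deviations. With the replicate block, 13 genes and no member passed.

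The sign of small differences was not stable for 7 members, and the cause was not tested. With protein-coding transcripts only, the log2 fold change was -0.001 for Hdac3, -0.006 for Hdac4, -0.071 for Hdac5 and -0.059 for Hdac7. With a length offset it was -0.025 for Hdac5 in edgeR and in DESeq2, and for Hdac7 -0.082 in edgeR and -0.081 in DESeq2. With library size alone it was 0.013 for Hdac8. With a library left out it ran from -0.032 to 0.077 for Hdac3, -0.028 to 0.075 for Hdac4, -0.075 to 0.137 for Hdac5, -0.065 to 0.096 for Hdac6, -0.035 to 0.041 for Hdac7, -0.092 to 0.022 for Hdac8 and -0.186 to 1.022 for Hdac9. Hdac1, Hdac2 and Hdac11 kept their sign under all 16 alternatives, Hdac1 from -0.139 to -0.085. With protein-coding transcripts only, chosen after seeing the data, 4 of 10 members kept their rank by level. Hdac9 was filtered out under some alternatives and gave no value there.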
